A study of Mus musculus with 18 samples.

Results

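The 33 genes described here encode the enzymes and transporters of glycolysis and a group of transcripts known to rise when oxygen is low. They were taken by symbol from a table of 32285 mouse gene identifiers, and all 33 passed the filter on low counts. RNA was sequenced from fibroblasts sorted from the paws of wild-type mice, which the study describes as synovial fibroblasts, that is cells of the joint lining tissue. Donor mice were either naive or had serum-transfer arthritis (STIA), which is set off by serum of K/BxN mice. Cells of naive mice had no stimulus, or received fibroblast growth factor 2 (FGF2, a mitogen) at 10 ng/mL, osteopontin (OPN, a secreted matrix protein that binds integrins and CD44) at 50 ng/mL, or both together, for 3 days. STIA cells had either no stimulus or OPN, at the same dose and for the same time. Each of the 6 groups held 3 libraries, 18 in all. There was no STIA group with FGF2 among the libraries analysed here. The labels do not say whether replicates were separate mice or cultures, so p-values measure how these libraries spread, which may be technical. No label states the oxygen level or how long unstimulated cells were cultured.

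Glycolysis splits glucose into pyruvate, and cells either oxidise the pyruvate in mitochondria or reduce it to lactate, which leaves through monocarboxylate transporters. Hypoxia-inducible factor 1 (HIF-1) is a transcription factor whose alpha subunit is marked for destruction by prolyl hydroxylases while oxygen is present. When the subunit persists it pairs with ARNT and binds short promoter and enhancer elements that hold the core ACGTG or GCGTG, and many glycolytic enzymes are among its targets. Synovial fibroblasts of inflamed joints are known to live in tissue that is poor in oxygen and to use glycolysis heavily.

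Promoters of the 33 genes were taken from RefSeq (assembly GRCm38.p6), and 32 members had a window. Each window ran from 250 bases before to 50 bases after the first listed transcript start of the gene. ACGTG or GCGTG, searched on both strands (so also as CACGT or CACGC), was present in 25 of 32 windows (78.1%), against 43.8% of 27025 windows of all genes. Part of these matches overlap the longer CACGTG, which was found in 4 members (12.5%) and in 7.24% of all genes. The window of Ldha held 7 matches, the highest number among members. This window (chr7:46845554-46845853) lay inside the annotated gene, whose span begins at 46841475. The windows of Slc16a3, Hif1a, Gapdh, Higd1a, Aldoa, Pfkl and Ankrd37 also lay wholly inside the annotated gene. These are matches of letters and not measured binding. The list holds glycolytic and hypoxia genes, and HIF-1 targets are among them. A share above that of all genes is thus built into the list, and a link to the changes with OPN was not tested. The windows of all genes were not limited to genes tested here.

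Printed below are the windows of 4 members that moved far with OPN or FGF2, with matches in capitals and everything else in lower case. Car9 (chr4:43506776-43507075, plus strand) fell furthest with OPN and had 1 match, read on the opposite strand, which began 18 bases before the start. Slc16a3 (chr11:120948817-120949116, plus strand), the next largest fall with OPN, had 2 matches close to the listed start. That start lies inside the annotated gene. Adm (chr7:110627407-110627706, plus strand) fell furthest with FGF2 and also had 2, both read on the opposite strand. Eno2 (chr6:124769624-124769923, minus strand) was the member that rose with OPN, and its window held no match. The same held for the windows of Aldoa, Gpi1, Hk1, Mxi1, Pkm and Tpi1, which fell with OPN. All other members that fell with OPN and had a window held at least 1 match. The windows of Ankrd37, Adm and Pfkfb4, which were not called, held 4, 2 and 1 matches.
Car9: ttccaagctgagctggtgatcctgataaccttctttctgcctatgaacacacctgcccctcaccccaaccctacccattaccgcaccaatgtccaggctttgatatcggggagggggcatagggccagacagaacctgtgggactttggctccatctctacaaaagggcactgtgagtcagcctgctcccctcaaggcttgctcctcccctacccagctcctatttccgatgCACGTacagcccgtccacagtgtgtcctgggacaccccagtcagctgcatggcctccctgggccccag
Slc16a3: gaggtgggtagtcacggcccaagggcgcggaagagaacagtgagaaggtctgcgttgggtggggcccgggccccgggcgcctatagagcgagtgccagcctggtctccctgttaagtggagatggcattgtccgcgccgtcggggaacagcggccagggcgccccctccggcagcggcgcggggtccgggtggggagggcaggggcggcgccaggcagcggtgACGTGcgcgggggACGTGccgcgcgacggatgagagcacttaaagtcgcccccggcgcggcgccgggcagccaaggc
Adm: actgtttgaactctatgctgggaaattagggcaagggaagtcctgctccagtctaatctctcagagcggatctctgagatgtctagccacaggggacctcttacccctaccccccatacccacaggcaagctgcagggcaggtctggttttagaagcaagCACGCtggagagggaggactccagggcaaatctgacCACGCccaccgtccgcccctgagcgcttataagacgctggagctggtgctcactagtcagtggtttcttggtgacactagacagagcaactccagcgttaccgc
Eno2: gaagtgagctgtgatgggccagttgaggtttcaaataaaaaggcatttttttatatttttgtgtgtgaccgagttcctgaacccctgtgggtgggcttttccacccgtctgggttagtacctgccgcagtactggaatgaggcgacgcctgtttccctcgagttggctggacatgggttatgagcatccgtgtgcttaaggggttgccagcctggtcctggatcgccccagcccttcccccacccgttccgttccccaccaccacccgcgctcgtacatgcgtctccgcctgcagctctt

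Library totals ran from 27527043 to 40357342 counts. Levels below are CPM, counts relative to a common library size after TMM scaling, and changes are log2 fold changes ± SE from 1 edgeR quasi-likelihood fit over all 18 libraries, with p-values adjusted over 15072 genes and a gene called at an adjusted p below 0.05. Fibroblast markers were abundant in every library (10 of 10 detected), whereas Ptprc, Adgre1 and C1qa, 3 of 9 macrophage markers, were at 0.156 CPM or lower in every group mean. Other markers of that list were detected at higher levels (Cd14 at a mean of 43.8 CPM with FGF2 and Lyz2 at 9.996 CPM with OPN in naive cells), and their sums are given beside the comparisons below. In the group given both factors, replicate 3 stood apart from the other 2 libraries for many enzymes. Gapdh was at 1949.9, 1934 and 2754 CPM in replicates 1 to 3, and the TMM factors were 1.096, 1.093 and 1.031, so counts of genes that rest on this group are also given without that library. Over all genes, replicate 2 of the FGF2 group differed more from its group. Its chi-square per degree of freedom was 29.4 and 40.7 against replicates 1 and 3. For replicate 3 of the group with both factors it was 21.5 and 25.4. FGF2 replicate 2 was left out only in turn with every other library. In bulk RNA, fewer cells of a type and less RNA per cell cannot be told apart.

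Per kilobase of exon, the most abundant members over all libraries were Pkm (590.0 CPM per kilobase), which encodes pyruvate kinase, Gapdh (548), Aldoa (395), Ldha (379), Eno1 (374) and Pgk1 (371). All 6 encode enzymes of the main glycolytic chain or lactate dehydrogenase. The least abundant were Aldoc (1.41), the brain-type aldolase, Ankrd37 (2.06), an ankyrin repeat protein, and Pfkfb4 (2.12). Hif1a, the oxygen-regulated subunit itself, stood at 75.9 CPM per kilobase. The 33 genes together took 1.45% to 1.57% of all counts in unstimulated naive libraries and 0.953% to 0.972% with OPN. Their summed level was 14802 to 16213 CPM without and 9682 to 10002 CPM with OPN, and the ranges did not overlap. In STIA cells the sum was 14152 to 15699 CPM without and 14777 to 15728 CPM with OPN, and there the ranges overlapped.

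**Figure D1:**
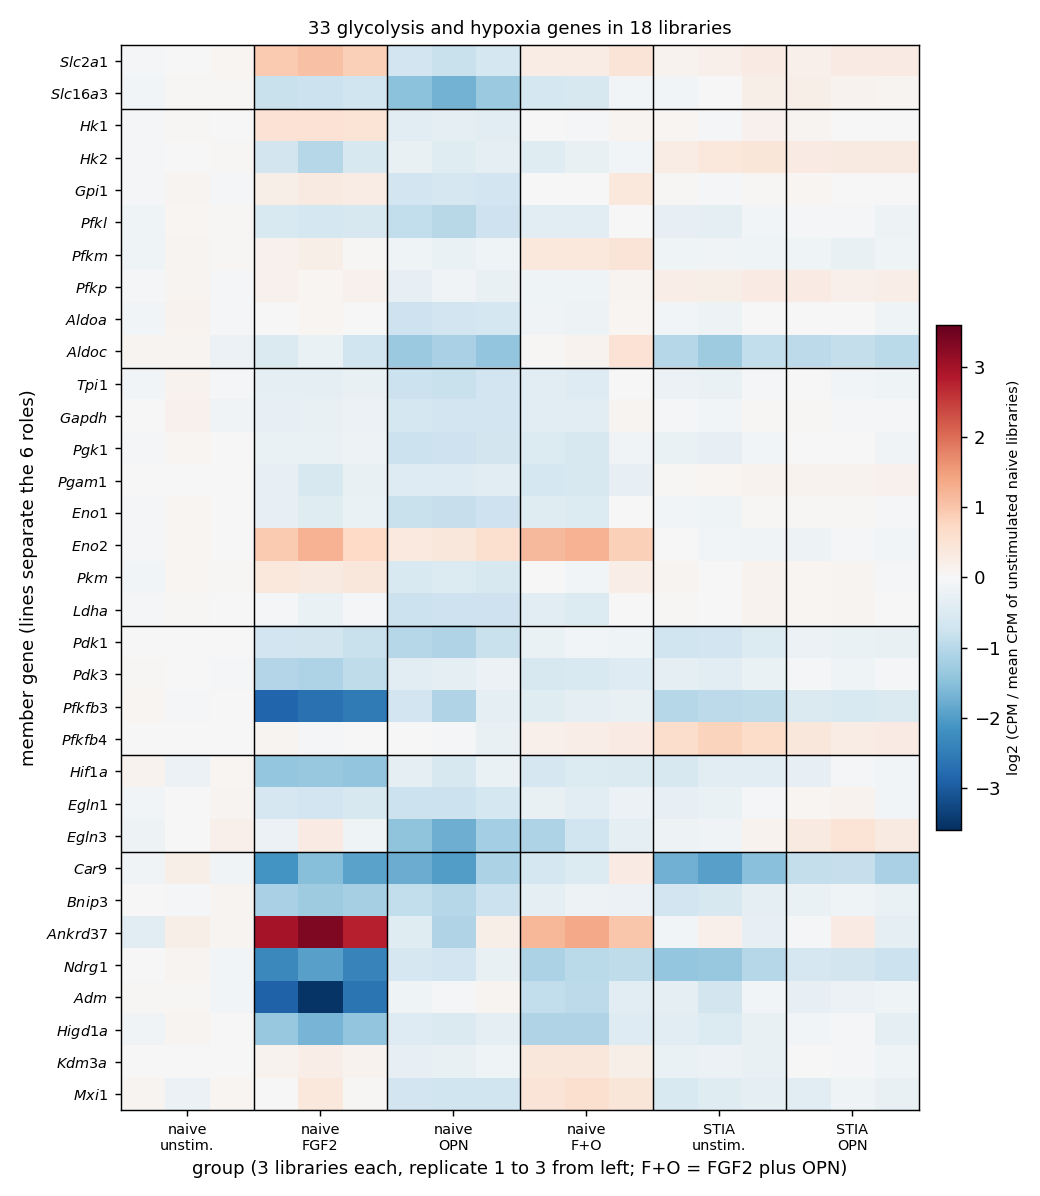
Each row is 1 of the 33 genes and each column 1 of the 18 libraries, and colour gives log2 of the CPM over the mean of the unstimulated naive libraries (blue lower, red higher, scale from -3.6 to 3.6). The column block of naive cells with OPN is blue for nearly all genes, with Eno2 as the red exception, while the FGF2 block holds both the deepest blue (Pfkfb3, Adm) and the deepest red (Ankrd37).

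OPN on naive fibroblasts was read against unstimulated naive cells. Of the 33 genes 29 fell and 1 rose, while 16.5% of all tested genes fell and 15.2% rose. The median log2 fold change of the members was -0.67, and that of all tested genes was 0.00. The fall took in both transporters, 8 of 8 members of upper glycolysis and 7 of 8 of lower glycolysis. It also took in Hif1a and the listed prolyl hydroxylase genes, Egln1 and Egln3. In the same libraries the summed level of skeletal muscle markers (8 of 8 detected with OPN) was 28.9 to 38.1 CPM with OPN and 18.5 to 23.2 CPM without, with Ckm at a mean of 0.0252 CPM with OPN, the macrophage sum was 17.4 to 21.4 CPM with and 13.8 to 14.95 CPM without, and the part of these in the result was not tested. The fibroblast sum was 50210 to 58213 CPM with OPN and 67582 to 75975 CPM without. The muscle list holds Pgam2 and Eno3, which also count among the further glycolytic genes below. Pgam2 was at 9.81 to 16.3 CPM with OPN and 6.37 to 8.54 CPM without. Eno3 was at 3.68 to 4.67 CPM with and 3.94 to 4.68 CPM without.

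Both transporters fell. Slc16a3, which encodes the lactate exporter MCT4, stood at 212, 230.4 and 234 CPM in the unstimulated naive libraries and at 80.9, 68.7 and 90.0 CPM with OPN. The groups lay far apart, and the level fell 2.82-fold (log2 fold change -1.50 ± 0.12, edgeR adjusted p 1.05e-07). Exons of Slc16a3 overlap those of Csnk1d on the opposite strand, and the strand setting of the counting is not stated. Slc2a1, the glucose importer GLUT1, was at 130.3, 131 and 139.7 CPM without and 82.5, 77.0 and 85.6 CPM with OPN. All 3 libraries with OPN were below all others in the study, and the fall was 1.64-fold (-0.71 ± 0.07, adjusted p 7.12e-08).

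Along the glycolytic chain the falls were of similar size at many steps. Aldoa, the main aldolase, was at 1185, 1366 and 1225 CPM without and 750.4, 784 and 804 CPM with OPN, and the highest OPN library was below the lowest of the other 15. Its log2 fold change was -0.69 ± 0.07 (edgeR adjusted p 4.02e-07). Pkm fell from 2684, 3039 and 2963 CPM to 1981, 2076 and 1958 CPM, by 1.44-fold. The other enzymes that fell by more than 0.6 on the log2 scale were Aldoc (-1.30), Pfkl (-0.87), the liver-type phosphofructokinase, Eno1 (-0.79), Tpi1 (-0.76), Ldha (-0.75), which makes lactate, Pgk1 (-0.73), Gpi1 (-0.67) and Gapdh (-0.67). Smaller falls were those of Pgam1 (-0.44), the hexokinases Hk1 (-0.37) and Hk2 (-0.35), Pfkp (-0.23) and Pfkm (-0.19). The calls of Pfkm, Pfkp and, among the hypoxia targets, Higd1a were each lost in at least 1 other setting.

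Eno2, the neuronal enolase, went the other way. It was at 13.4, 14.4 and 13.7 CPM without and 17.8, 18.4 and 20.4 CPM with OPN, a rise of 1.36-fold (0.45 ± 0.11, edgeR adjusted p 0.00433). The libraries of the groups did not overlap. Eno2 remained a minor enolase, since its share of the per-length sum of Eno1 and Eno2 was 0.671% ± 0.0103 (SD, n = 3) without and 1.57% ± 0.0640 (SD, n = 3) with OPN.

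Among the regulators of flux, Pdk1 changed most. It encodes a kinase that switches off pyruvate dehydrogenase and so holds back the oxidation of pyruvate in mitochondria. Its level was 99.2, 98.4 and 99.95 CPM without and 48.98, 46.8 and 56.8 CPM with OPN, so that it fell 1.95-fold (-0.96 ± 0.07, edgeR adjusted p 1.34e-09). Pdk3, another kinase of this kind and the most abundant regulator per length, was at 73.9, 70.3 and 68.9 CPM without and 54.8, 57.0 and 61.7 CPM with OPN, a smaller fall (-0.30 ± 0.06). Pfkfb3 makes the sugar bisphosphate that is the activator of phosphofructokinase, and fell from 92.3, 84.1 and 88.9 CPM to 54.9, 41.5 and 69.0 CPM (-0.68 ± 0.12), with a wide spread among the OPN libraries. Its relative Pfkfb4 was not called (-0.10 ± 0.09).

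All 3 members of the oxygen-sensing group fell, whereas of 8 further HIF regulators tested 1 fell and 0 rose. Egln3, the prolyl hydroxylase PHD3 and itself a HIF target, was at 6.59, 7.37 and 8.47 CPM without and 2.76, 2.21 and 3.18 CPM with OPN. This was a 2.77-fold fall to a low level (-1.47 ± 0.19, edgeR adjusted p 3.62e-06). Egln1, the main prolyl hydroxylase PHD2, fell by 0.73 on the log2 scale. Hif1a stood at 651, 522 and 627 CPM without and 480.3, 403 and 512 CPM with OPN. The groups were close to each other, and the fall was modest (-0.37 ± 0.09, adjusted p 0.00247).

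Of the 8 other hypoxia targets 6 fell and none rose. Car9, a carbonic anhydrase on the cell surface that is widely used as a sign of hypoxia, stood at 16.8, 21.1 and 16.6 CPM without and 5.27, 4.48 and 8.20 CPM with OPN. It fell 3.07-fold (-1.62 ± 0.25, edgeR adjusted p 0.000183), although its levels were low. Bnip3, which promotes the removal of mitochondria, fell by 0.89 ± 0.08 and Mxi1, a repressor related to the MYC network, by 0.70 ± 0.10 on the log2 scale. Ndrg1, a stress-responsive gene, (-0.51), the mitochondrial protein gene Higd1a (-0.44) and the histone demethylase gene Kdm3a (-0.25) also fell. Adm, which encodes the vasodilator adrenomedullin, was at 73.8, 73.4 and 66.7 CPM without and 64.1, 68.8 and 76.8 CPM with OPN. The libraries overlapped and Adm was not called (95% interval -0.40 to 0.34). Ankrd37 was not called either, at 1.54 CPM or lower in both groups.

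Across all 6 groups, naive cells with OPN had the lowest mean for 21 of the 33 genes, and this group was lowest for 16.6% of all tested genes. For 15 members all 3 OPN libraries were below the other 15, against 5.39% of all tested genes. Unstimulated naive cells had the highest mean for 13 members (10.46% of all tested genes) and naive cells with OPN for 0 (18.35% of all tested genes).

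**Figure D2:**
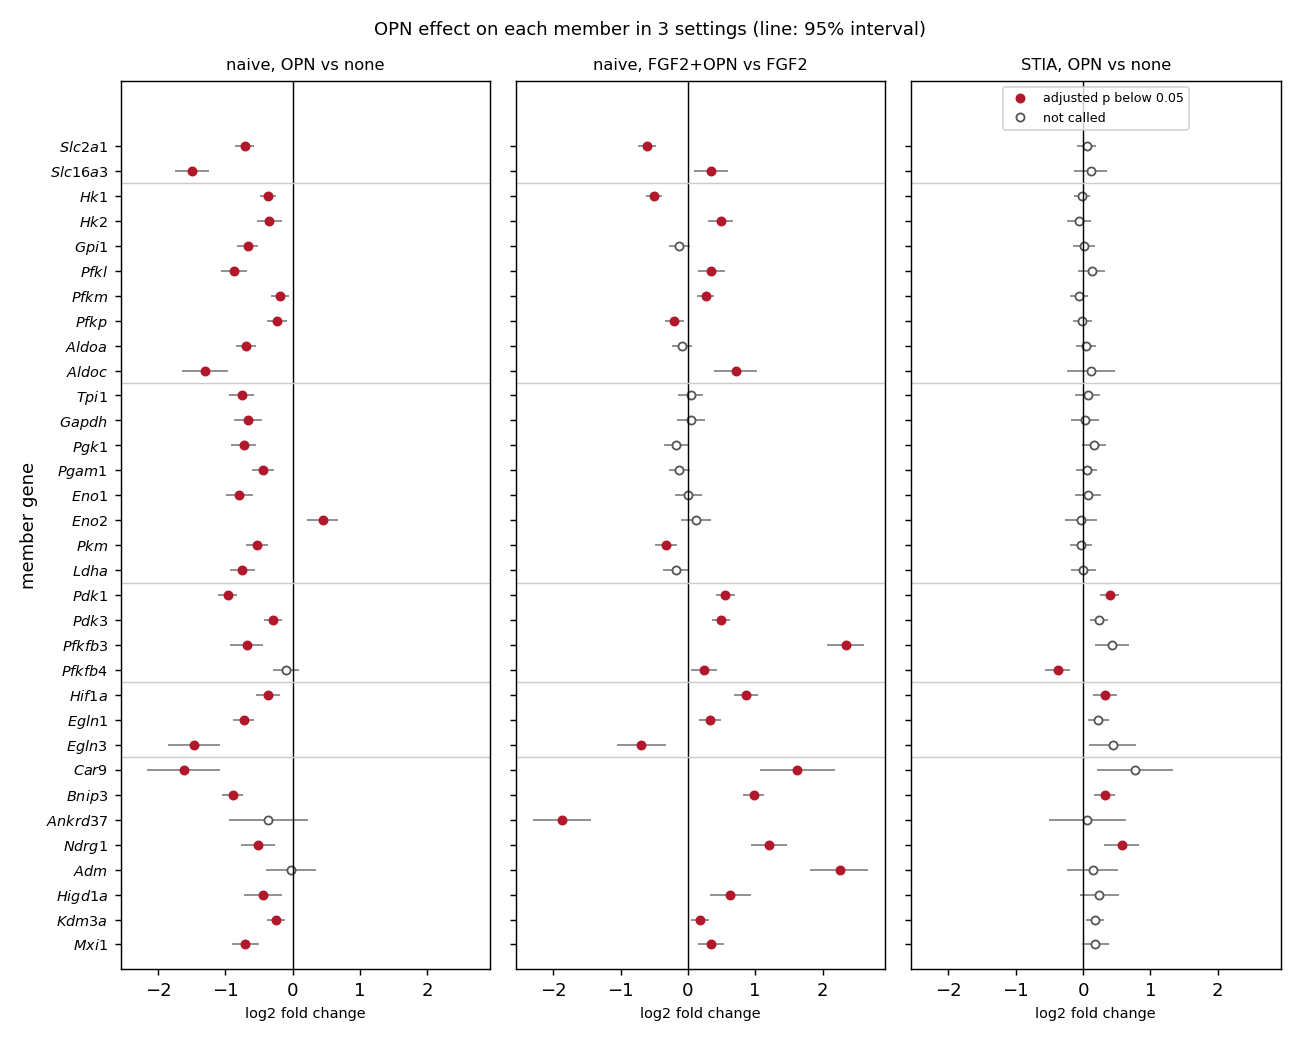
Points give the log2 fold change of each gene (vertical axis) and lines its 95% interval for OPN against no OPN in naive cells, in naive cells that also had FGF2, and in STIA cells; filled points were called. On the left 29 of 33 points are filled to the left of 0, in the middle 18 are filled to the right, and on the right 4 are filled to the right and 1 to the left.

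FGF2 alone changed the genes in both directions. Of the 33 genes 19 fell and 7 rose, while 28.1% of all tested genes fell and 29.1% rose. The members' median log2 fold change was -0.31 against 0.01 for all tested genes. The glucose importer, the hexokinase gene Hk1, pyruvate kinase and Eno2 rose, whereas 3 of 4 regulators of flux, Hif1a and 5 of 8 other hypoxia targets fell, with Adm, Pfkfb3 and Ndrg1 down by more than 2 on the log2 scale. Summed macrophage markers (8 of 9 detected with FGF2) were 55.3 to 58.6 CPM with FGF2 and 13.8 to 14.95 CPM without, mainly Cd14, with C1qa at 0 with FGF2. The endothelial sum (5 of 6 detected) was 14.1 to 14.4 CPM against 2.38 to 2.74 CPM and the fibroblast sum 21765 to 23367 CPM against 67582 to 75975 CPM, and the part of these markers in the result was not tested.

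Among genes that rose, Slc2a1 reached 255, 276 and 243 CPM, above every library of every other group. The rise over unstimulated naive cells was 1.93-fold (0.95 ± 0.07, edgeR adjusted p 2.15e-11). Hk1, a hexokinase of most tissues, was at 186, 199.9 and 198 CPM without and 279, 276 and 276 CPM with FGF2, a rise of 0.51 ± 0.06 on the log2 scale. Pkm was at 3794, 3639 and 3845 CPM with FGF2, again above all other libraries, and rose by 0.38 ± 0.08. Eno2 rose to 26.5, 33.01 and 22.8 CPM (0.99 ± 0.11, adjusted p 7.82e-08). Smaller rises were those of Gpi1 (0.27) and Kdm3a (0.16). Ankrd37 had the largest fold of all, from 1.01, 1.52 and 1.42 CPM to 10.6, 13.5 and 9.14 CPM (3.07 ± 0.24). Its exons overlap those of Ufsp2 on the opposite strand, a gene with 30698 counts against 1801 for Ankrd37, so its level is uncertain.

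Other glycolytic genes fell with FGF2. Hk2, the inducible hexokinase, fell from 79.1, 84.0 and 86.0 CPM to 52.6, 40.7 and 55.2 CPM (-0.75 ± 0.09), opposite in direction to Hk1. Slc16a3 was at 130.3, 133 and 136 CPM, a fall of 1.69-fold (-0.76 ± 0.12, edgeR adjusted p 2.87e-05), opposite in direction to Slc2a1. Pfkl (-0.59), Aldoc (-0.47), Pgam1 (-0.37), Eno1 (-0.31), Tpi1 (-0.31), Gapdh (-0.26) and Pgk1 (-0.21) fell as well. Of the calls with FGF2, those of Pgk1, Kdm3a, Gapdh and Aldoc were each lost in 3 to 8 of 25 other settings. Pfkm, Pfkp, Aldoa and Ldha were not called, with log2 fold changes of 0.15, 0.13, 0.01 and -0.11.

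Pfkfb3 fell most among the regulators of flux. With FGF2 its libraries held 12.1, 13.8 and 15.02 CPM, a fall of 6.47-fold (-2.69 ± 0.13, edgeR adjusted p 2.04e-12). No library of another group was below 41.5 CPM. Pdk3 was at 34.5, 32.9 and 37.4 CPM (-1.02 ± 0.07) and Pdk1 at 61.3, 62.4 and 57.1 CPM (-0.72 ± 0.07), both below all unstimulated naive libraries. Pfkfb4 was not called (0.00 ± 0.09).

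Hif1a was at 226, 233 and 224 CPM with FGF2, the lowest of all groups, a 2.64-fold fall (-1.40 ± 0.09, edgeR adjusted p 3.19e-12). Egln1 fell by 0.62 ± 0.08 on the log2 scale, and Egln3 was not called (0.00 ± 0.17). Among the targets, Adm was at 9.56, 6.15 and 11.4 CPM, a fall of 7.86-fold (-2.97 ± 0.20, adjusted p 5.45e-09). Ndrg1 fell from 100, 106 and 93.2 CPM to 19.9, 25.7 and 18.8 CPM (-2.22 ± 0.13) and Car9 to 4.07, 6.31 and 4.75 CPM (-1.85 ± 0.26). These 3 genes and Pfkfb3 were the largest falls among members with at least 5 CPM. Higd1a (-1.48) and Bnip3 (-1.21) fell too, and Mxi1 was not called (0.15).

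**Figure D3:**
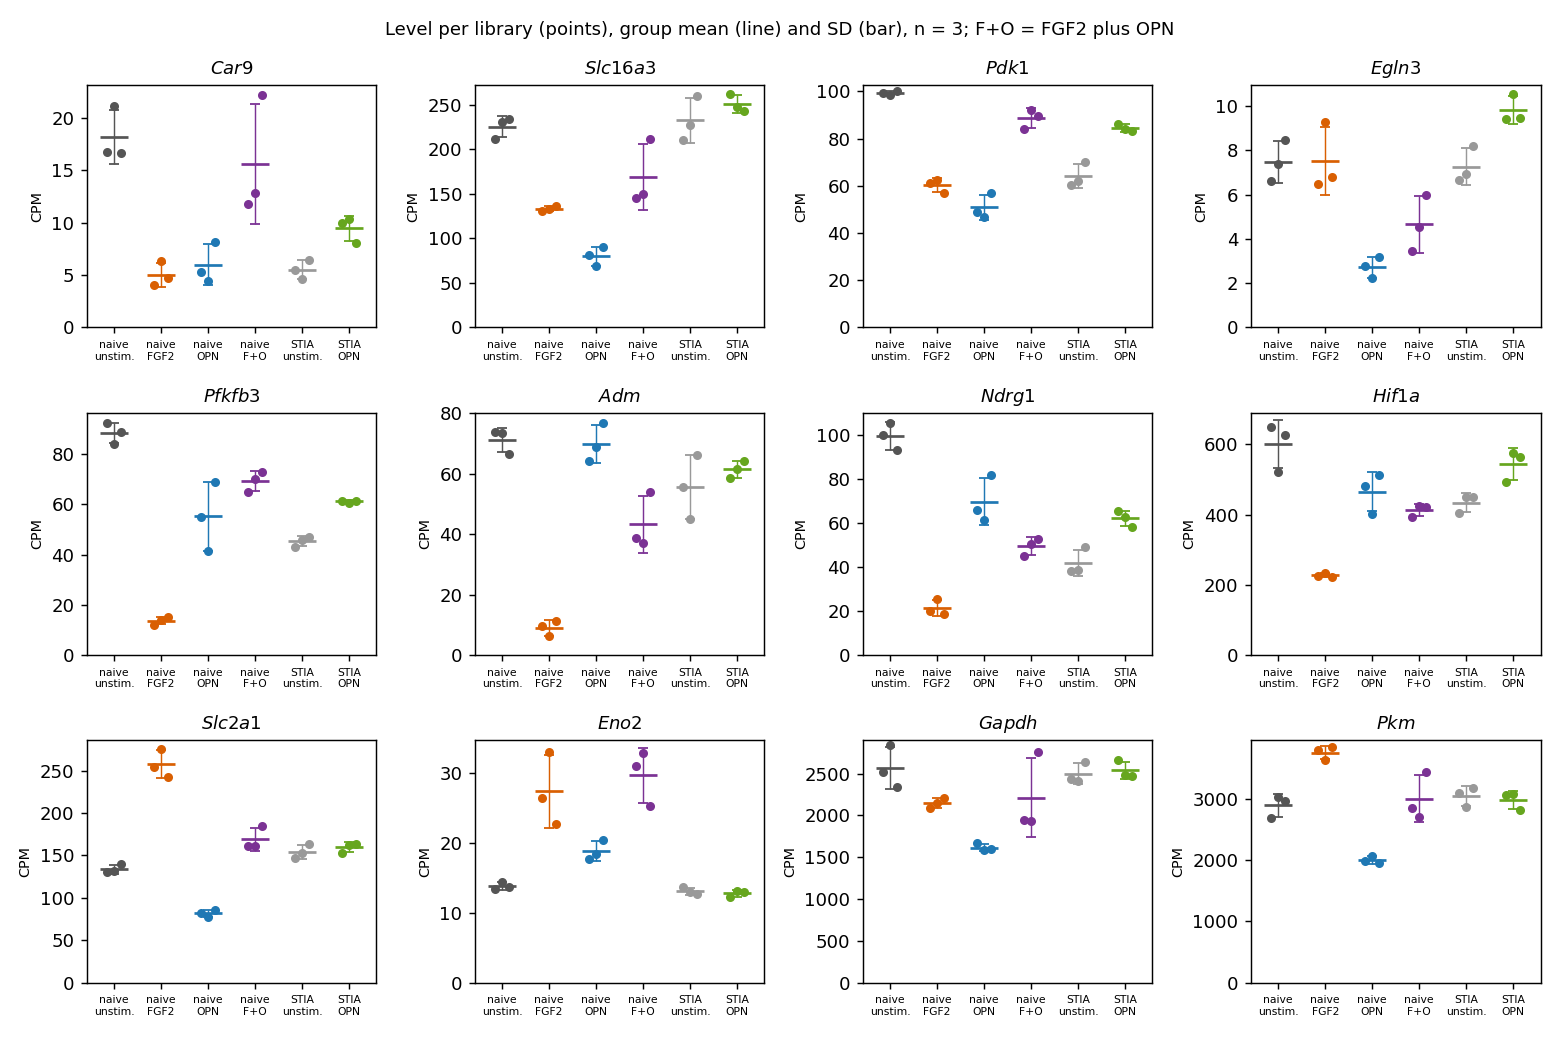
Points are the 3 libraries of each group for 12 of the genes, on a linear CPM axis that starts at 0; the horizontal line is the mean and the bar the SD (n = 3). Adm and Pfkfb3 are lowest in the FGF2 group, Slc2a1 and Pkm are highest with FGF2 and lowest with OPN, and in the group given both factors (F+O) 1 library is high for Car9, Slc16a3 and Gapdh.

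The group given both factors was read against the same unstimulated naive cells. With both factors 2 genes (Eno2 and Ankrd37) rose and 1 (Ndrg1) fell by at least 2-fold, while 7.18% of all tested genes rose and 4.48% fell by that much. At the threshold 17 of 33 genes fell and 7 rose, while 26.1% of all tested genes fell and 23.7% rose, and the members' median was -0.24 on the log2 scale. On plain library totals, which moved the median of all genes from -0.01 to 0.14, 9 fell and 11 rose. Without replicate 1 of the group 10 fell and 7 rose, and without replicate 3, the library that stood apart, 20 fell and 6 rose. The fibroblast marker sum was 31191 to 35435 CPM with both factors, and the Schwann cell sum (4 of 4 detected) was 36.9 to 42.5 CPM against 24.9 to 26.4 CPM in unstimulated naive cells, and the part of these in the result was not tested.

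Genes that rose included Eno2 at 31.0, 32.9 and 25.3 CPM (1.10 ± 0.11, edgeR adjusted p 3.12e-08) and Mxi1, which went from 30.9, 25.3 and 30.7 CPM to 39.9, 43.0 and 38.8 CPM (0.48 ± 0.09). Pfkm, the muscle-type phosphofructokinase, was at 43.0, 50.5 and 49.0 CPM without and 61.7, 62.0 and 65.2 CPM with both factors, above all other libraries of the study (0.41 ± 0.06). Its exons overlap Senp1 on the opposite strand. Kdm3a rose from 51.6, 52.1 and 51.4 CPM to 68.2, 68.7 and 59.7 CPM (0.34 ± 0.06). Slc2a1 (0.34), Ankrd37 (1.20) and Pfkfb4 (0.24) also rose, but the call of Pfkfb4 was lost in 6 of 25 other settings. With both factors the calls of Hk2, Pfkl, Tpi1, Eno1, Ldha, Pfkfb3, Egln1 and Bnip3 were each lost in 1 to 6 of them.

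The largest falls with both factors were among hypoxia targets. Ndrg1 was at 44.9, 50.7 and 52.7 CPM (-1.01 ± 0.12, edgeR adjusted p 1.39e-06) and Adm at 38.6, 37.1 and 54.1 CPM (-0.72 ± 0.18). Higd1a fell from 64.5, 76.0 and 71.8 CPM to 33.3, 33.3 and 51.3 CPM (-0.85 ± 0.14), with replicate 3 the highest of its group. Egln3 was at 3.44, 4.55 and 6.0 CPM (-0.69 ± 0.18), and its 3 libraries were all below the unstimulated ones. Car9 held 11.8, 12.8 and 22.2 CPM and was not called (-0.22 ± 0.24), with replicate 3 above every unstimulated library. Pdk1 was not called (-0.16 ± 0.07, adjusted p 0.0502).

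Adding OPN to FGF2 was then read against FGF2 alone. Here 18 of 33 genes rose and 6 fell, while 27.3% of all tested genes rose and 31.2% fell. Without replicate 3 of the group with both factors, 16 rose and 11 fell. All 4 regulators of flux and 7 of 8 other hypoxia targets rose, with Ankrd37 as the exception. Of these rises, the call of Pfkfb4 was lost in 6 and that of Kdm3a in 5 of 25 other settings. Pfkfb3 went from 12.1, 13.8 and 15.02 CPM to 64.8, 70.0 and 73.1 CPM, a 5.07-fold rise (2.34 ± 0.13, edgeR adjusted p 2.96e-11). Adm rose 4.76-fold (2.25 ± 0.20). Hif1a, at 395, 425 and 421 CPM, was 1.81-fold higher than with FGF2 alone (0.86 ± 0.09). The genes that fell included Slc2a1, at 162, 161 and 185 CPM (-0.61 ± 0.07), Egln3 (-0.69 ± 0.18) and Hk1 (-0.50 ± 0.06). Of the 8 members of lower glycolysis none rose and Pkm fell (-0.32 ± 0.08).

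Adding FGF2 to OPN, read against OPN alone, raised 25 of 33 genes and lowered 4, while 27.1% of all tested genes rose and 29.5% fell. On plain library totals, which moved the median of all genes to 0.12, 27 rose and 2 fell, and without replicate 3 of the group with both factors 24 rose and 5 fell. Both transporters rose, as did 6 of 8 members of upper and 7 of 8 of lower glycolysis. Car9 was 2.63-fold higher (1.40 ± 0.25, edgeR adjusted p 0.000206) and Mxi1, at 18, 17.8 and 17.7 CPM with OPN alone, 2.28-fold higher (1.19 ± 0.10). Aldoc (1.54 ± 0.16), Ankrd37 (1.57 ± 0.25), Slc16a3 (1.08 ± 0.12) and Slc2a1 (1.05 ± 0.07) also rose by more than 1 on the log2 scale. Adm (-0.69 ± 0.18), Ndrg1 (-0.50 ± 0.12), Higd1a (-0.41 ± 0.14) and Pdk3 (-0.23 ± 0.06) fell. The calls of Higd1a and Pdk3 were each lost in at least 1 other setting. Among the 19 genes that FGF2 lowered when given alone, 12 were raised by it in the presence of OPN, 4 were lowered and 3 were not called; these 2 comparisons share no library. Without replicate 3 of the group with both factors these counts were 11, 5 and 3, and Pfkfb3 was no longer called. The same split was not counted over all genes that FGF2 alone lowered, so it cannot be called particular to the members.

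**Figure D4:**
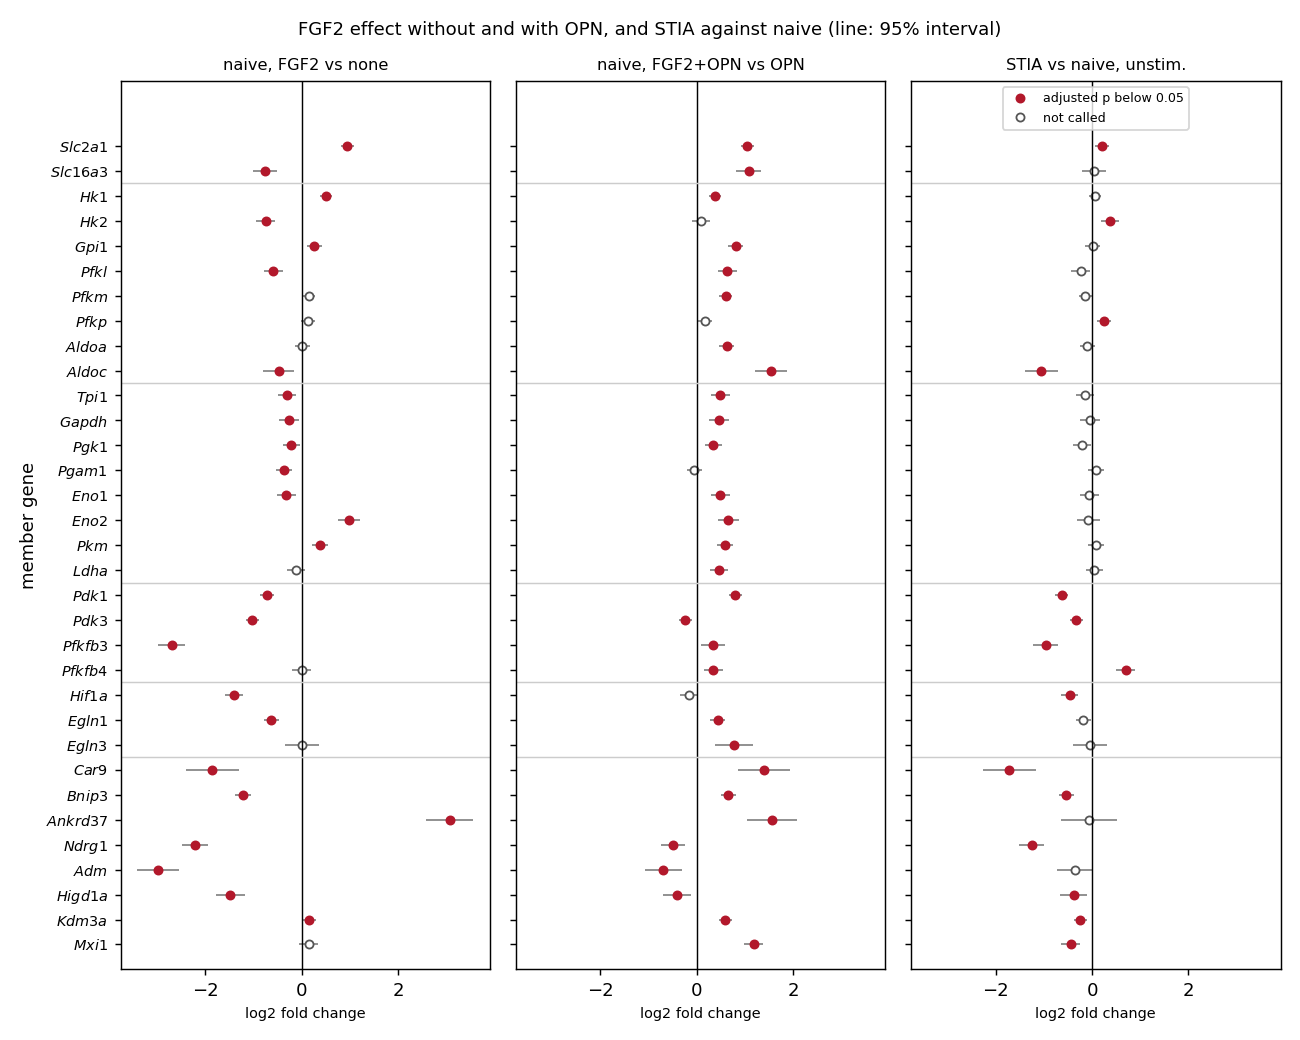
Points give the log2 fold change of each gene and lines its 95% interval, for FGF2 without OPN, FGF2 in the presence of OPN, and STIA against naive cells without stimulation; filled points were called. The left panel spreads from -2.97 (Adm) to 3.07 (Ankrd37), the middle panel has 25 filled points to the right of 0, and in the right panel none of the 8 genes of lower glycolysis is filled.

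The difference between these effects was tested as an interaction, that is the FGF2 effect with OPN minus the FGF2 effect without. It was above 0 for 27 of 33 genes and below 0 for 1, Ankrd37, while 24.1% of all tested genes were called above and 27.2% below. The members' median was 0.79 and that of all tested genes -0.03. It was largest for Car9 (3.25 ± 0.36, edgeR adjusted p 1.87e-06) and Pfkfb3 (3.03 ± 0.18, adjusted p 9.83e-11). It was also above 1 for Adm (2.28), Aldoc (2.01), Bnip3 (1.87), Slc16a3 (1.84), Ndrg1 (1.72), Pdk1 (1.52), Hif1a (1.23), Pfkl (1.22), Higd1a (1.07), Egln1 (1.05) and Mxi1 (1.04). Slc2a1 (0.10 ± 0.09), Hk1 (-0.13 ± 0.08), Pkm (0.21 ± 0.11), Pfkp (0.03 ± 0.10) and Eno2 (-0.33 ± 0.15) were not called. Without replicate 3 of the group with both factors, 24 genes were called above 0 and 1 below.

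STIA cells without stimulation were read against unstimulated naive cells. Regulators of flux (3) and other hypoxia targets (6) made up most of the genes that fell. Of the 33 genes 11 fell and 4 rose, while 18.2% of all tested genes fell and 18.6% rose, with a members' median of -0.14. None of the 8 members of lower glycolysis was called, and their log2 fold changes ran from -0.21 to 0.08. Summed skeletal muscle markers (7 of 8 detected in STIA) were 68.6 to 88.3 CPM in STIA and 18.5 to 23.2 CPM in naive libraries, mostly Acta1 (56.2 to 73.8 CPM in STIA), with Ckm at a mean of 0.0120 CPM in STIA. The fibroblast sum was 49675 to 54177 CPM in STIA and 67582 to 75975 CPM in naive cells, the endothelial sum 4.12 to 5.07 CPM against 2.38 to 2.74 CPM, and the pericyte and smooth muscle sum 352.5 to 417 CPM against 302 to 317 CPM. The part of these markers in the result was not tested.

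Pfkfb4, an isoenzyme of Pfkfb3, was at 8.83, 8.86 and 8.96 CPM in naive and 13.9, 15.3 and 14.0 CPM in STIA libraries, a 1.62-fold rise (0.70 ± 0.09, edgeR adjusted p 4.5e-06). Hk2 rose to 101, 109 and 112 CPM (0.37 ± 0.09), above all naive libraries. Pfkp, the platelet-type phosphofructokinase, was at 89.3, 99.3 and 91.5 CPM in naive and 109, 108 and 116 CPM in STIA libraries (0.25 ± 0.07), and it overlaps Pitrm1 on the opposite strand. Slc2a1 was at 147, 153 and 163 CPM (0.21 ± 0.07, adjusted p 0.018), a small rise whose adjusted p was 0.0978 without STIA replicate 3.

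Among the genes that fell in STIA, Car9 was at 5.45, 4.66 and 6.46 CPM, 3.29-fold below naive cells (-1.72 ± 0.26, edgeR adjusted p 9.46e-05). Ndrg1 was at 38.2, 38.5 and 48.98 CPM (-1.25 ± 0.12), Pfkfb3 at 43.1, 46.0 and 47.1 CPM (-0.96 ± 0.12) and Pdk1 at 60.3, 62.0 and 69.9 CPM (-0.63 ± 0.07). All 4 lay below the naive libraries without overlap, as did 25.2% of all tested genes. Aldoc fell by 1.05 ± 0.16, Bnip3 by 0.53 ± 0.07, Hif1a, at 404, 449 and 449.8 CPM, by 0.47 ± 0.09 and Mxi1 by 0.45 ± 0.10 on the log2 scale. Higd1a (-0.38), Pdk3 (-0.33) and Kdm3a (-0.24) fell by less than 0.4. Adm was at 55.8, 45.1 and 66.3 CPM and was not called (-0.35 ± 0.17).

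OPN on STIA cells called few members. Of the 33 genes 4 rose and 1 fell, while 1.15% of all tested genes rose and 1.02% fell, and 11 members had an unadjusted p below 0.05. The members' median log2 fold change was 0.11. With any 1 of these 6 STIA libraries left out, 0 to 3 members rose and 0 fell, none at all without replicate 1 of the unstimulated group. In a fit of only these 2 groups 8 rose and 1 fell. The skeletal muscle sum was 33.7 to 39.0 CPM with and 68.6 to 88.3 CPM without OPN, mostly Acta1. The fibroblast sum was 57619 to 62437 CPM with and 49675 to 54177 CPM without, the Schwann cell sum 25.6 to 29.3 CPM with and 18.2 to 22.7 CPM without, and the part of these markers in the result was not tested.

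Ndrg1 was at 65.4, 62.9 and 58.4 CPM with OPN, above the 38.2, 38.5 and 48.98 CPM of unstimulated STIA cells (0.57 ± 0.12, edgeR adjusted p 0.0225). Pdk1 rose to 86.3, 83.9 and 83.0 CPM (0.40 ± 0.07, adjusted p 0.00351) and Bnip3 from 58.3, 62.3 and 72.9 CPM to 79.0, 83.0 and 79.6 CPM (0.32 ± 0.08, adjusted p 0.0281). Hif1a rose to 492, 577 and 564 CPM (0.33 ± 0.09, adjusted p 0.0482), a call that lies at the threshold. The groups did not overlap for any of these 4 genes (12.3% of all tested genes were higher without overlap), and their group means with OPN remained below those of unstimulated naive cells. Pfkfb4 fell to 11.7, 10.7 and 10.9 CPM (-0.38 ± 0.09, adjusted p 0.0306). Car9 was at 9.96, 10.3 and 8.06 CPM, 1.71-fold higher without overlap, but was not called (95% interval 0.21 to 1.34, adjusted p 0.166). For some abundant enzymes the intervals were narrow around 0, at -0.19 to 0.14 for Pkm, -0.11 to 0.20 for Aldoa, -0.18 to 0.19 for Ldha and -0.19 to 0.23 for Gapdh. Pgk1, also abundant, was at a mean of 855 CPM without and 958 CPM with OPN. Eno1 was at 2248 CPM without and 2355 CPM with OPN, and neither gene was called.

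The OPN effect in STIA cells was then compared with that in naive cells by a contrast of the differences. It was higher in STIA cells for 26 of 33 genes and lower for 1, while 11.8% of all tested genes were called higher and 10.5% lower, and the members' median was 0.73. Car9 differed by 2.40 ± 0.37 (edgeR adjusted p 0.000236), Egln3 by 1.91 ± 0.25 (adjusted p 1.16e-05), Slc16a3 by 1.61 ± 0.17, Aldoc by 1.42 ± 0.24 and Pdk1 by 1.36 ± 0.10. The effect was higher in STIA cells for 7 of 8 members of lower glycolysis and for both transporters. Eno2, the other member of lower glycolysis, had a lower effect in STIA (-0.48 ± 0.16, adjusted p 0.0361), and this call was lost when any 1 of 9 of the 12 libraries in the contrast was left out. Of the 29 genes that OPN lowered in naive cells, 4 rose with OPN in STIA cells (Pdk1, Hif1a, Bnip3 and Ndrg1), 0 fell and 25 were not called. The 2 OPN comparisons share no library. This split too was not counted over all genes that OPN lowered in naive cells.

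Where a step of the pathway has several isoenzymes, their share of the summed per-length level moved between groups, with no test made. Hk2 made up 37.9% ± 0.419 (SD, n = 3) of Hk1 plus Hk2 in unstimulated naive cells, 20.3% ± 2.57 with FGF2 and 43.0% ± 1.85 in unstimulated STIA cells. The lowest and highest libraries of these groups did not overlap. With OPN alone the Hk2 share was 38.2% ± 2.18, around the unstimulated value. Pfkl held 69.0% ± 0.461 of the phosphofructokinases without stimulation, 57.3% ± 1.40 with FGF2 and 58.3% ± 2.08 with OPN, while the share of Pfkm stood at 28.7% ± 1.75 and 28.2% ± 0.878 against 20.8% ± 0.144.

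Pfkfb3 made up 86.5% ± 0.559 (SD, n = 3) of Pfkfb3 plus Pfkfb4 in unstimulated naive cells, 49.6% ± 3.93 with FGF2 and 80.9% ± 0.402 with both factors. In STIA cells its share was 67.0% ± 1.29 without and 78.05% ± 0.766 with OPN, and the libraries of these groups were apart. Pdk1 held 31.5% ± 0.823 of Pdk1 plus Pdk3 in unstimulated naive cells, 22.4% ± 1.03 with OPN and 37.3% ± 1.12 with both factors. On plain counts without exon length the Pdk1 share was 58.3%, 46.7% and 64.3% in the same 3 groups, so the size of a share depends on the length used but its order here does not. Aldoa held 99.4% or more of Aldoa plus Aldoc and Eno1 98.2% or more of Eno1 plus Eno2 in every group mean. Eno3 and Eno1b were not part of these sums.

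**Figure D5:**
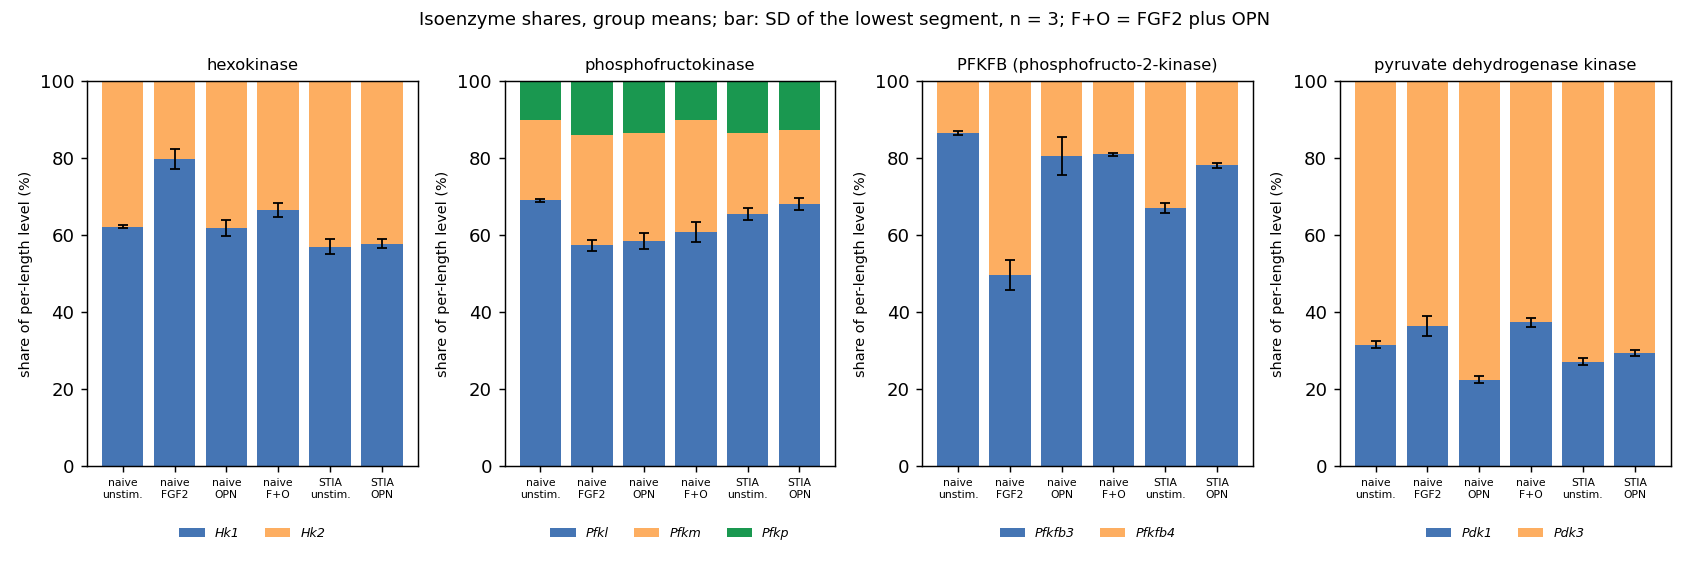
Stacked bars give the mean share (percent, axis from 0 to 100) of each isoenzyme in the per-length sum of its family for the 6 groups, and the error bar is the SD of the lowest segment (n = 3). The Pfkfb3 segment is 86.5% in unstimulated naive cells and 49.6% with FGF2, and the Hk1 segment is 62.1% and 79.7% in the same groups.

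Of 84 further genes of the same pathways, 77 were tested. OPN in naive cells lowered 26 and raised 10 of them, beside 16.5% and 15.2% of all tested genes. FGF2 lowered 38 and raised 16 (28.1% and 29.1% of all tested genes), and both factors lowered 31 and raised 15 (26.1% and 23.7%), or 31 and 16 without replicate 3. STIA lowered 25 and raised 18 (18.2% and 18.6%), and OPN in STIA cells lowered 3 and raised 4 (1.02% and 1.15%). Among them were 29 further hypoxia targets, of which 16 fell and 1 rose with OPN in naive cells and 20 fell and 4 rose with FGF2. Outside this list the genes that fell with OPN in naive cells were a smaller part of each list, except for the pentose phosphate pathway. Of 12 further glycolytic genes 2 fell and 4 rose, and of 12 genes of pyruvate fate 1 fell and 3 rose. Of 9 genes of lactate and sugar transport 2 fell and 1 rose, and of 8 HIF regulators 1 fell and 0 rose. Of 7 genes of the pentose phosphate pathway 4 fell and 1 rose. Angptl4, a secreted regulator of lipoprotein lipase, fell with OPN from 54.0 ± 6.70 to 24.9 ± 3.48 CPM (SD, n = 3 each; -1.12 ± 0.11, edgeR adjusted p 1.17e-07). Eno1b, a near-identical copy of Eno1 whose reads may be shared with it, fell by 1.50 ± 0.24 on the log2 scale. Stc1, a secreted glycoprotein, fell with OPN (-1.15 ± 0.35) and rose with FGF2 (1.84 ± 0.30), with an uneven level of 20.7 ± 12.9 CPM there.

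With OPN in naive cells Pdp1, a phosphatase that switches pyruvate dehydrogenase on, rose from 34.1 ± 3.67 to 66.8 ± 10.0 CPM (0.97 ± 0.11, edgeR adjusted p 1.63e-06), while the opposing kinase Pdk1 fell. Pdk4, another such kinase, rose (0.88 ± 0.18), and so did Pgam2, the muscle phosphoglycerate mutase (0.74 ± 0.17). With FGF2, Pdp1 (1.22 ± 0.11) and Galm (1.07 ± 0.08), a sugar mutarotase gene, rose, and the matrix genes Lox (-2.87 ± 0.13) and Loxl2 (-2.64 ± 0.14) fell. With both factors Ppp1r3c, a glycogen-targeting subunit, rose from 8.42 ± 0.653 to 28.3 ± 2.48 CPM (1.75 ± 0.22), followed by Pdk2 (0.86 ± 0.11) and Pdk4 (0.64 ± 0.18). Loxl2 (-1.99 ± 0.13) and the transferrin receptor gene Tfrc (-1.38 ± 0.17) fell. Adding OPN to FGF2 raised 37 and lowered 22 of the 77 (27.3% and 31.2% of all tested genes; 39 and 23 without replicate 3 of the group with both factors), with Ppp1r3c (3.64 ± 0.26), Lox (2.27 ± 0.12) and the pyruvate carboxylase gene Pcx (1.88 ± 0.09) as the largest rises. Adding FGF2 to OPN raised 25 and lowered 29 (27.1% and 29.5% of all tested genes; 24 and 28 without that library), with Ppp1r3c (1.41 ± 0.22), Stc1 (1.27 ± 0.34) and the angiogenic factor gene Vegfa (1.16 ± 0.05) as the largest rises.

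In STIA cells Eno3 (0.78 ± 0.16), the muscle enolase, and Loxl2 (0.77 ± 0.13) rose. Ppp1r3c (-2.63 ± 0.29), Pdp1 (-1.07 ± 0.12) and Angptl4 (-1.02 ± 0.11) fell most. OPN on STIA cells raised Tmem45a (0.39 ± 0.08), the histone demethylase gene Kdm4b (0.33 ± 0.08) and the oxidoreductase gene Ero1l (0.32 ± 0.06, edgeR adjusted p 0.00857). It lowered Galm (-0.34 ± 0.08), the haem oxygenase gene Hmox1 (-0.32 ± 0.07) and Taldo1 (-0.25 ± 0.06). Between STIA and naive cells the OPN effect differed most for Stc1 (1.77 ± 0.48) and the lactate transporter gene Slc16a1 (1.41 ± 0.20), where it was higher in STIA, and for Pdk4 (-1.38 ± 0.26) and Bpgm (-0.90 ± 0.14), where it was lower.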

How the data were processed

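Raw counts per gene and library, as whole numbers with no normalisation, were deposited by the authors for all 18 libraries, with exon lengths in bases beside them. The submitters' processing notes name STAR, featureCounts and GRCm38 (mm10). Not given in the sources used here are versions, annotation release, strand setting and treatment of multi-mapped reads, so genes with near-identical copies (Gapdh, Pgk1, Ldha, Eno1) or antisense overlaps are uncertain. Identifiers were matched to GENCODE M21 symbols (32158 of 32285); the 127 unmatched took 0.0294% of counts. Of 2 identifiers named Aldoa, the one with 9 to 56 counts per library was left out.

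Genes were filtered by filterByExpr (15072 kept), scaled by TMM and fitted with edgeR 4.0.16 (R 4.3.3) by robust quasi-likelihood with 1 mean per group and no covariate, leaving 12 residual degrees of freedom. The biological coefficient of variation was 7.99%. Tests were two-sided F tests for 9 contrasts, adjusted by Benjamini-Hochberg over all 15072 genes and called below 0.05. The script was tested on simulated data. Members, lists and rules were chosen with earlier results of these data known. Genes given with every library were the 4 largest rises and falls (2 for the last 4 contrasts) among called members with at least 5 CPM, plus the most abundant of each role. Of the further pathway genes the 3 largest rises and falls per comparison were eligible to be named (1 is not reported here); genes outside these rules were chosen after their values were seen. Marker sums use plain library totals. Alternatives were RLE factors, library totals, no filter, DESeq2 1.42.0, voom in limma 3.58.1, only the groups compared, a replicate block and each library left out; counts of further pathway genes, and of members by both FGF2 effects, without replicate 3 of the group with both factors were added after seeing the data. Depth was 27527043 to 40357342 counts per library.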

Additional observations from a re-analysis of the deposited data

Results flagged for a closer look

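For 2 genes named by rule in the interaction the effect of FGF2 differed between naive cells with and without OPN. The FGF2 effect with OPN exceeded that without OPN by 3.25 ± 0.36 (log2 ± SE, edgeR adjusted p 1.87e-06) for Car9, which was lower with FGF2 alone and higher when FGF2 was added to OPN. For Pfkfb3 it was 3.03 ± 0.18 (adjusted p 9.83e-11).

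The OPN effect was called different between STIA and naive cells for 27 members by a test of the difference itself. Of these, 7 are given here. Car9, Egln3 and Eno2 were named by the size of the difference. Pdk1, Hif1a, Bnip3 and Ndrg1 were added because OPN lowered them in naive and raised them in STIA cells. For these 4 a difference was thus largely built into the choice. The values, as the effect in STIA minus that in naive cells on the log2 scale, were 2.40 ± 0.37 for Car9, 1.91 ± 0.25 for Egln3, 1.36 ± 0.10 for Pdk1, 1.21 ± 0.11 for Bnip3, 1.09 ± 0.17 for Ndrg1 and 0.69 ± 0.12 for Hif1a. Eno2 alone of these 7 had a lower effect in STIA cells (-0.48 ± 0.16, edgeR adjusted p 0.0361).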

How the results depend on the processing

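No direction of a called gene named with values reversed under any alternative run. For OPN in naive cells 27 of 30 calls were kept in every setting, for FGF2 22 of 26 and for both factors 15 of 24. For STIA 13 of 15 were kept and for OPN in STIA cells 0 of 5. Adding OPN to FGF2 kept 20 of 24 and adding FGF2 to OPN 26 of 29. The interaction kept 25 of 28 and the OPN effect in STIA minus naive cells 26 of 27. On plain library totals FGF2 raised 10 and lowered 17 members (7 and 19 with TMM), both factors raised 11 and lowered 9 (7 and 17), and 2 members fell when FGF2 was added to OPN (4). With no filter OPN in STIA cells raised 10 members (4), and the interaction was below 0 for 2 (1). In a fit of only the groups compared OPN in STIA cells raised 8. With limma-voom 0 members had a lower OPN effect in STIA cells (1).

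Leaving out 1 library at a time, members lowered by both factors numbered 10 to 20 and members lowered by adding OPN to FGF2 5 to 11, the highest without replicate 3 of the group with both factors. OPN in STIA cells raised 0 to 6 and lowered 0 to 1 members. Without unstimulated STIA replicate 1 Ndrg1 had an edgeR adjusted p of 0.133, Bnip3 of 0.201 and Pdk1 of 0.0503. Members below 0 in the interaction numbered 1 to 2 and members with a lower OPN effect in STIA cells 0 to 1. Hif1a in STIA cells with OPN had an adjusted p of 0.0599 with RLE factors, 0.0601 with library totals, 0.0521 with limma-voom and 0.0535 with the replicate block. The replicate block left the member counts of OPN in naive cells at 1 and 29 and of OPN in STIA cells at 4 and 1; the deviations of same-numbered libraries correlated at -0.104 to 0.199 over 45 pairs, and the labels do not say what a number shares. The cause of these changes was not tested. With 3 libraries a group, the widest 95% interval of a member for OPN in STIA cells reached 0.576 on either side.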

Other observations

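The pentose phosphate pathway branches off glycolysis and yields NADPH and ribose. FGF2 raised 5 of its 7 tested genes and lowered 0 (29.1% of all tested genes rose), with Taldo1 (0.80 ± 0.06), Pgd (0.58 ± 0.06), Tkt (0.36 ± 0.06) and the entry enzyme gene G6pdx (0.35 ± 0.07) among them (edgeR log2 fold changes ± SE). OPN in naive cells raised 1 and lowered 4, with G6pdx at -0.34 ± 0.07 and Tkt at -0.35 ± 0.06. Of 9 tested genes of lactate and sugar transport, adding OPN to FGF2 raised 8 and lowered 0 (27.3% of all tested genes rose), led by Slc16a7 (1.28 ± 0.20) and Slc2a12 (1.14 ± 0.20). Pcx, which carboxylates pyruvate for the citric acid cycle, fell with FGF2 (-1.95 ± 0.09) and was higher with both factors than with FGF2 alone (1.88 ± 0.09). Vegfa, the angiogenic factor and a HIF target, rose with FGF2 (0.94 ± 0.05) and fell with OPN (-0.62 ± 0.05). These groups and genes were chosen after their values were seen.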
